A study of Mus musculus with 48 samples.

Results

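Aquaporins are membrane channels for water, and a subgroup of them, the aquaglyceroporins, also passes glycerol. Liver counts were examined for the 5 members of the family named Aqp1, Aqp4, Aqp8, Aqp9 and Aqp11, taken by gene symbol from a table of 23732 genes, with their levels over 6 times of day in mice with and without Bmal1. All 5 matched 1 row each, and all 5 were among the 14836 genes that passed the filter on low counts.

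In the hepatocyte AQP8 is known from the canalicular membrane, where bile is secreted, from vesicles beneath it and from mitochondria, and it carries water, ammonia and hydrogen peroxide. AQP9 sits in the membrane that faces the blood and takes up glycerol for gluconeogenesis and triglyceride synthesis, and insulin is known to lower its gene. AQP11 is an endoplasmic reticulum member of an unusual branch of the family, AQP1 is a water channel of endothelium, bile duct epithelium and red cells, and AQP4 is best known from astrocytes. BMAL1, encoded by Arntl in the gene table, pairs with CLOCK or NPAS2, and the pair activates genes through E-boxes as the positive limb of the circadian clock.

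The libraries came from livers of 48 male C57BL/6 mice, 4 to 6 months old, 24 of each genotype. KO mice carried floxed Bmal1 alleles and EsrCre, a tamoxifen-inducible Cre expressed throughout the body, while the mice labelled WT were littermates that had the same floxed alleles but no Cre. Mice of both genotypes received tamoxifen, 5 mg a day by gavage over 5 days, and 7 days after the last dose they were moved into darkness for 36 h. They were then killed in the dark at 6 times 4 h apart (ZT0, ZT4, ZT8, ZT12, ZT16 and ZT20, zeitgeber hours as labelled), 4 mice per genotype and time, which gives 12 groups of separate animals. Every KO mouse had Cre and no WT mouse did, so Cre and the loss of Bmal1 cannot be told apart. KO mice weighed 23 to 31 g and WT mice 27 to 34 g, and calls that end with body weight as a covariate are given below. Bmal1 was removed in the adult and in all tissues, so a change in liver cannot be told apart from one that begins elsewhere in the body.

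Each library held 33562272 to 34035644 counts, so the member with the fewest counts, Aqp4, still had 80 to 499 counts in every library. Levels are given as CPM, counts per 1000000 counts of a library after TMM scaling. Arntl, the targeted gene, measured 23.5 ± 17 CPM in WT and 14.2 ± 6.57 CPM in KO (SD, n = 24 each), and its fitted 24 h amplitude was 2.03 on the log2 scale in WT and 0.18 in KO. Since Cre removes part of Arntl, whole-gene counts are no check of the deletion. In KO, mice 20 and 21 (ZT12) together with mice 43 and 44 (ZT0) lay farthest from the rest of their groups among the 48 libraries, with a root mean square log2 difference of 0.5 to 0.597 over all genes tested against at most 0.464 in the other libraries, and results that change without them are given without them below. Of the hepatocyte markers, Apoa1, Ttr, Serpina1a, Cyp2e1 and Tat were all abundant (summed level 12600 to 27000 CPM in WT and 14200 to 29800 CPM in KO), as the tissue label has it. In whole liver, fewer cells of a type and less RNA per cell cannot be told apart.

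Per kilobase of exon, Aqp9 was the most abundant member, at 109.6 CPM per kb ± 20.6 (SD, n = 48 libraries, range 71.5 to 159). Aqp8 followed at 72.5 CPM per kb ± 34.4 (18.9 to 183) and Aqp1 at 58.6 CPM per kb ± 5.69 (43.7 to 71.7). These 3 overlapped in their ranges over libraries, and their order is not the same at every time, since Aqp8 alone ran from below the lowest Aqp1 library to above the highest Aqp9 library. Aqp11 at 2.54 CPM per kb ± 0.424 (1.72 to 3.54) and Aqp4 at 0.969 CPM per kb ± 0.432 (0.391 to 2.26) lay far below them. Per kilobase the ranges of Aqp11 and Aqp4 overlapped each other but reached none of the other members. This order depends on the exon lengths, 9418 bases for Aqp11, 6233 for Aqp4, 2627 for Aqp1 and 1581 for Aqp8. In CPM, Aqp11 (16.24 to 33.38) and Aqp4 (2.436 to 14.07) did not overlap. Aqp1 (mean 153.9 CPM) stood above Aqp8 (114.6 CPM), and the lowest Aqp9 library (296.1 CPM) above the highest of Aqp8 (288.8 CPM). Aqp3, Aqp5, Aqp7, Aqp12 and Mip, other genes of the family in the table, had 51, 62, 57, 2 and 6 counts over all 48 libraries together and did not pass the filter. Aqp7, the aquaglyceroporin of fat cells, and Aqp3, that of skin and kidney, were thus counted far below Aqp9, which had at least 9875 counts in each library.

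Aqp8, Aqp9 and Aqp11 cycled in WT liver, each with its own fitted phase, and no rhythm was called for any member in KO liver. A rhythm here is a single 24 h wave fitted per genotype, its amplitude is the log2 distance from mean to peak, and a gene is called when its Benjamini-Hochberg adjusted p over all genes tested is under 0.05 in edgeR's quasi-likelihood test. In WT 3 of 5 members were called rhythmic, against 48.1% of all genes tested, and in KO 0 of 5, against 0.984%. The rhythm itself differed between genotypes for the same 3 members, where 22.8% of all genes did. With so small a family, the WT share is near the background.

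**Figure D1:**
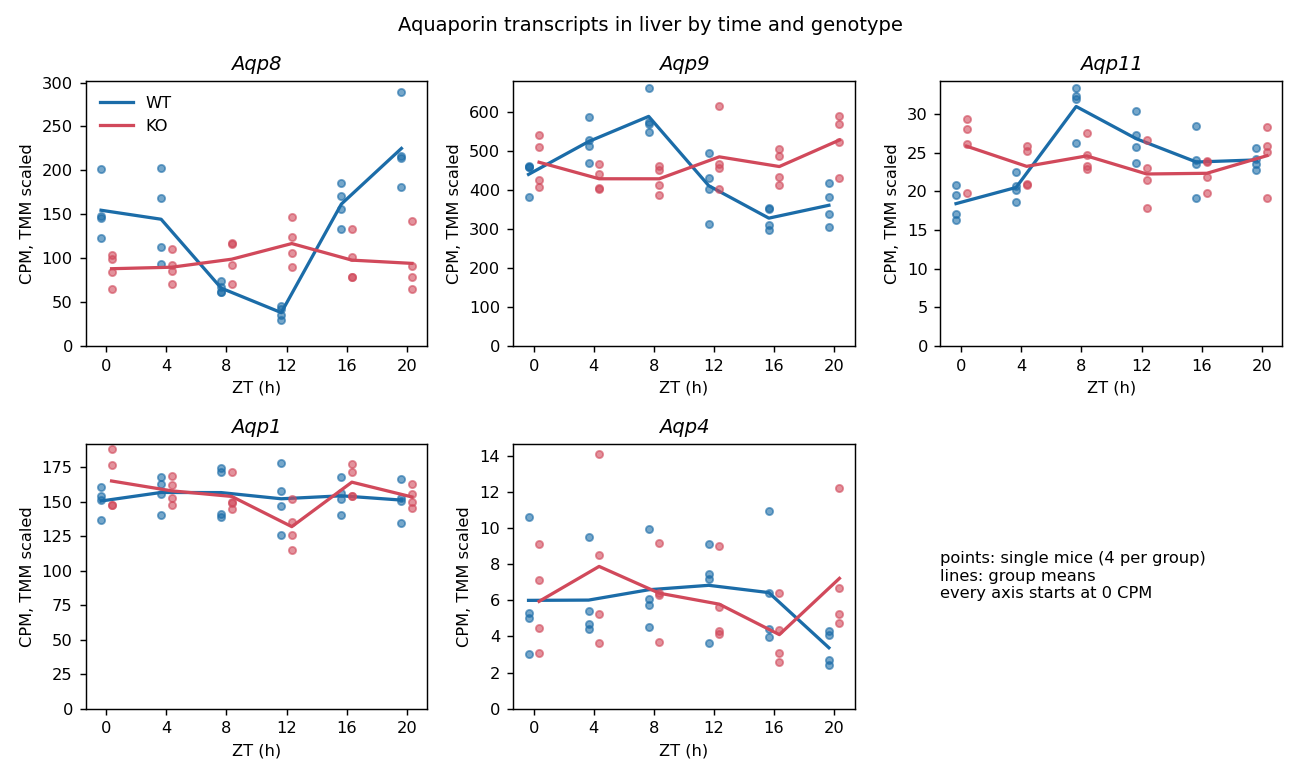
Level of each aquaporin in CPM (vertical axes from 0) against time of death in ZT hours, in 24 WT mice (blue) and 24 KO mice (red). Points are single mice, 4 per group, and lines join group means; WT means of Aqp8 run from 38.1 to 225 CPM, while the KO means stay between 88.1 and 117 CPM.

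Aqp8 (ENSMUSG00000030762, mm9 chromosome 7, 130605808 to 130611517) had the widest swing of the family. RefSeq promoter sequence, available for 4 of the 5 members, is shown for the 3 that cycled, because each contains one of the searched motifs; the first is the stretch upstream of the Aqp8 start (GRCm38.p6, plus strand, chr7:123462044-123462290).
Aqp8: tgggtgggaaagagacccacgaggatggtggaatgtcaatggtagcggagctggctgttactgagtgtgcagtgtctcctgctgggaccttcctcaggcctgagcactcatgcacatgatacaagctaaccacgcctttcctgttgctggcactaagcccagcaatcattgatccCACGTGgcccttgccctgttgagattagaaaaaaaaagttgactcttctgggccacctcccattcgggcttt
Capitals mark CACGTG, the canonical E-box, 75 bases upstream of the start. The same 6 letters, which read alike on both strands, occur in 6.02% of 32851 promoter windows of 250 bases. A match of letters describes the sequence and does not show that a factor binds there. The share of windows that hold any of the searched motifs was not counted. Matches in the cycling members are therefore not shown to go with cycling.

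The Aqp8 level at ZT0 was 123, 146, 148 and 202 CPM in the 4 WT mice and 64.8, 84.3, 99.3 and 104 CPM in the 4 KO mice, and the groups did not overlap. At ZT4 it was 93.3, 113, 169 and 203 CPM in the 4 WT mice and 70.8, 85.9, 92.2 and 110.3 CPM in the 4 KO mice, with overlap. By ZT8 the WT mice had dropped to 61.5, 61.6, 67.2 and 73.7 CPM, and the KO mice stood at 70.3, 92.1, 116 and 117 CPM, so that a single KO mouse lay inside the WT range. The lowest WT values of the series were those of ZT12, where the 4 WT mice had 29.9, 35.3, 41.97 and 45.2 CPM. All 4 KO mice of that time, at 90.0, 106, 124 and 147 CPM, were above them. At ZT16 the level was 133, 156, 171 and 186 CPM in the 4 WT mice and 78.5, 78.7, 101 and 133 CPM in the 4 KO mice, the ranges meeting only at the highest KO and the lowest WT mouse. At ZT20 it was 181, 214, 216 and 289 CPM in the 4 WT mice and 65.3, 78.4, 91.0 and 142 CPM in the 4 KO mice. No KO mouse reached the lowest WT mouse at that time.

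The WT group means of Aqp8 were 154.6 ± 33.3, 144 ± 50.4, 66.0 ± 5.77, 38.1 ± 6.85, 162 ± 22.6 and 225 ± 45.5 CPM from ZT0 to ZT20 (SD, n = 4 each), a 5.91-fold span. In KO the means were 88.1 ± 17.6, 89.8 ± 16.4, 98.9 ± 22.3, 117 ± 24.5, 97.9 ± 25.9 and 94.2 ± 33.5 CPM, a 1.33-fold span. The KO mean was thus highest at ZT12, the hour of the WT minimum. The fitted WT amplitude was 1.07 ± 0.13 (approximate SE, adjusted p = 7.26e-08), or 4.42-fold from trough to peak, with the peak at ZT 21.9. In KO it was 0.17 ± 0.12 (adjusted p = 0.592), and 0.418 (adjusted p = 0.31) with cage set in the model. The rhythms differed with an adjusted p of 9.52e-06, and the genotype by time interaction over the 6 group means gave an adjusted p of 1.15e-07. Among all genes tested, ordered by p, Aqp8 stood at place 184 for the rhythm difference.

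KO minus WT for Aqp8 therefore changed sign with the hour. At ZT12 Aqp8 was higher in KO (log2 fold change 1.62 ± 0.23 SE, adjusted p = 7.17e-06), and at ZT20 it was lower (-1.26 ± 0.23, adjusted p = 0.00377). Both calls held in all 48 fits that left out 1 mouse. Lower levels at ZT0 (-0.81 ± 0.22, adjusted p = 0.0484) and ZT16 (-0.72 ± 0.22, adjusted p = 0.0468) were called by a narrow margin, and the calls remained in 19 and 21 of those 48 fits. The ZT0 call also ended with DESeq2 size factors in edgeR (adjusted p = 0.0507), without the filter (0.0655) and with cage as a random block (0.0538), and the ZT16 call with total-count scaling (0.0667), without the filter (0.066) and with the cage block (0.0533). Without KO mice 43 and 44 (and 20 and 21), which leaves 2 KO mice at ZT0, the ZT0 value was -0.87 with an adjusted p of 0.195, and without the same mice the ZT12 value was 1.63 (adjusted p = 0.000304). The values at ZT4 (-0.69 ± 0.22, adjusted p = 0.071) and ZT8 (0.58 ± 0.22, adjusted p = 0.105) were not called. Averaged over the 6 times the difference was -0.21 ± 0.09 (95% interval -0.40 to -0.03, adjusted p = 0.144), and 0 of 5 members were called on that average, against 8.86% of all genes tested.

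**Figure D2:**
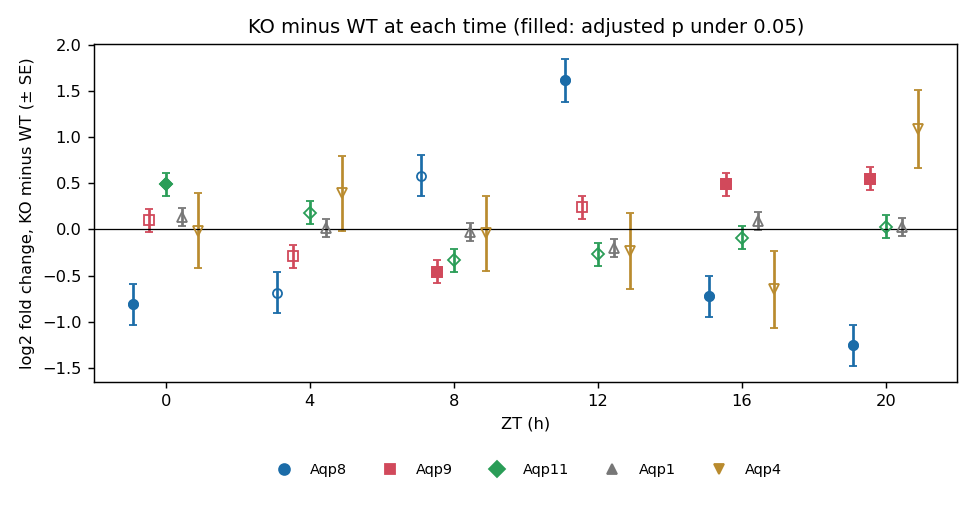
KO minus WT as log2 fold change ± SE (vertical axis) at each of the 6 times (horizontal axis, ZT in hours) for the 5 aquaporins, offset sideways for legibility; each estimate compares 4 KO with 4 WT mice. Filled symbols are adjusted p under 0.05; Aqp8 moves from -0.81 at ZT0 to 1.62 at ZT12 and -1.26 at ZT20, and Aqp9 from -0.46 at ZT8 to 0.55 at ZT20.

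Aqp9 (ENSMUSG00000032204, mm9 chromosome 9, 70958466 to 71016489) cycled with a phase far from that of Aqp8. RefSeq gives it more than 1 start, and the one whose upstream bases hold a motif is shown here on the minus strand of GRCm38.p6 (chr9:71162634-71162883).
Aqp9: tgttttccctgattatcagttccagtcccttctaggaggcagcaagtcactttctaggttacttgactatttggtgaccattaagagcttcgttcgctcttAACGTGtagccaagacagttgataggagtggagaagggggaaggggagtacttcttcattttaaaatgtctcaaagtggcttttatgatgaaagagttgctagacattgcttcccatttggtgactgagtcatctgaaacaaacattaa
Capitals mark AACGTG, the reverse complement of the E-box variant CACGTT, 149 bases upstream of that start; either strand of this variant occurs in 3.85% of promoter windows.

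At ZT0 Aqp9 measured 381, 458, 459 and 460.2 CPM in the 4 WT mice and 406, 426, 509.7 and 542 CPM in the 4 KO mice. At ZT4 the WT mice, with 469, 511, 528 and 587 CPM, were all above the KO mice, with 402, 404, 440.4 and 467 CPM. The separation was wider at ZT8, the WT maximum, with 549, 569.9, 573 and 660.5 CPM in the 4 WT mice and 388, 413, 451 and 462 CPM in the 4 KO mice. The order then turned over. At ZT12 the genotypes overlapped, with 313, 403, 431 and 495 CPM in the 4 WT mice and 402, 457, 465 and 614 CPM in the 4 KO mice. At ZT16 the WT mice were at their lowest, 296, 310.4, 351 and 353 CPM, and all 4 KO mice, at 414, 434, 487 and 504 CPM, were above them. The same held at ZT20, with 305, 337, 382 and 418 CPM in the 4 WT mice and 431, 523, 568 and 589 CPM in the 4 KO mice.

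Group means of Aqp9 in WT were 439.6 ± 39.1, 524 ± 48.7, 588 ± 49.4, 411 ± 75.5, 328 ± 28.7 and 361 ± 49.7 CPM from ZT0 to ZT20 (SD, n = 4 each). In KO they were 471 ± 65.2, 428 ± 31.4, 428 ± 34.1, 485 ± 90.5, 459.8 ± 43.1 and 528 ± 70.3 CPM. The span over the day was 1.8-fold in WT and 1.23-fold in KO. The WT amplitude was 0.40 ± 0.05 (approximate SE, adjusted p = 1.43e-07) with the peak at ZT 5.74, and the KO amplitude 0.12 ± 0.05 (adjusted p = 0.273). The rhythm difference had an adjusted p of 3.75e-06 (place 122 among all genes by p), and the interaction one of 6.58e-05.

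KO mice had less Aqp9 than WT mice at ZT8, by -0.46 ± 0.12 (log2 fold change and SE, adjusted p = 0.0158), and more at ZT16 (0.49 ± 0.12, adjusted p = 0.0141) and ZT20 (0.55 ± 0.12, adjusted p = 0.0174). These calls held in all 8 other settings tried and in 46, 44 and 44 of the 48 fits without 1 mouse, with adjusted p up to 0.0802 in the others. The ZT8 call ended without WT mouse 16 or KO mouse 10, the ZT16 call without WT mouse 28 or 29 or KO mouse 25 or 26, and the ZT20 call without WT mouse 35 or 36 or KO mouse 38 or 39. At ZT4 the groups did not overlap, but the difference of -0.29 ± 0.12 was not called (adjusted p = 0.18). The differences at ZT0 (0.10 ± 0.12) and ZT12 (0.24 ± 0.12) were not called either, nor was the average over times (0.10 ± 0.05, 95% interval 0.00 to 0.21, adjusted p = 0.204).

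Aqp11 (ENSMUSG00000042797, mm9 chromosome 7, 104874889 to 104886757) cycled at a lower level and with a smaller wave. Upstream of its start the RefSeq window without the bases that GENCODE models count as exon reads, on the minus strand of GRCm38.p6 (chr7:97738290-97738497),
Aqp11: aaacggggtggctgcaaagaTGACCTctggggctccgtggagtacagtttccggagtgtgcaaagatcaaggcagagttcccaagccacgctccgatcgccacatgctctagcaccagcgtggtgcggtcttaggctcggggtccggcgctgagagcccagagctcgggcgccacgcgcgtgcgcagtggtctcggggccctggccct
with TGACCT in capitals, the reverse complement of the nuclear receptor half-site AGGTCA, 230 bases upstream. Either strand of that half-site occurs in 14% of promoter windows. The Aqp1 window held none of the motifs searched on both strands. None of the 4 genes held the D-box TTATGTAA (0.819% of windows), its core TTANNTAA (5.43%), the half-site variant GGGTCA (11.6%) or the HNF4 or PPAR direct repeat, a pair of half-sites AGGTCA with 1 base between them (0.0335%).

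At ZT0 Aqp11 measured 16.2, 17.02, 19.5 and 20.8 CPM in the 4 WT mice and 19.8, 26.1, 28.1 and 29.4 CPM in the 4 KO mice, with 3 KO mice above every WT mouse. At ZT4 it was 18.6, 20.2, 20.7 and 22.5 CPM in the 4 WT mice and 20.9, 20.99, 25.1 and 25.9 CPM in the 4 KO mice. The WT mice peaked at ZT8, at 26.3, 31.9, 32.2 and 33.4 CPM against 22.9, 23.3, 24.6 and 27.5 CPM in KO. There 3 of the WT mice were above every KO mouse. At ZT12 the values were 23.7, 25.8, 27.3 and 30.4 CPM in the 4 WT mice and 17.9, 21.4, 23.0 and 26.6 CPM in the 4 KO mice, and at ZT16 they were 19.2, 23.6, 24.0 and 28.4 CPM in the 4 WT mice and 19.8, 21.9, 23.8 and 23.9 CPM in the 4 KO mice. At ZT20 they were 22.8, 23.5, 24.2 and 25.6 CPM in the 4 WT mice and 19.1, 25.1, 25.8 and 28.4 CPM in the 4 KO mice. The genotypes overlapped at all 6 times.

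WT means of Aqp11 ran from 18.4 ± 2.13 CPM at ZT0 to 31.0 ± 3.18 CPM at ZT8 (SD, n = 4 each), a 1.68-fold span, and KO means from 22.2 ± 3.63 CPM at ZT12 to 25.8 ± 4.25 CPM at ZT0, a 1.16-fold span. The WT amplitude was 0.28 ± 0.06 (approximate SE, adjusted p = 0.000407) with the peak at ZT 11.4, and the KO amplitude 0.08 ± 0.06 (adjusted p = 0.574). The rhythm difference (adjusted p = 0.00305) and the interaction (adjusted p = 0.00398) were called. At single times only ZT0 was called, where Aqp11 was higher in KO (0.49 ± 0.12, adjusted p = 0.0318). That call ended with total-count scaling (0.39, adjusted p = 0.056), with body weight as a covariate (0.47, adjusted p = 0.0653), with cage as a random block (0.45, adjusted p = 0.0662), without KO mice 43 and 44 (and 20 and 21; 0.32, adjusted p = 0.361), and in 5 of 48 fits without 1 mouse (WT mice 47 and 48 and KO mice 43, 44 and 46). Averaged over times KO and WT were level for Aqp11 (0.00 ± 0.05, 95% interval -0.10 to 0.10).

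Aqp1 (ENSMUSG00000004655, mm9 chromosome 6, 55286426 to 55298549) had the smallest coefficient of variation over mice in each genotype. Its level was 153.5 CPM ± 13.7 in WT (lowest 126, median 153, highest 178) and 154 CPM ± 16.4 in KO (lowest 115, median 152, highest 188; SD, n = 24 each). WT group means stayed between 150.4 and 157 CPM, a 1.04-fold span, and the WT amplitude was 0.02 ± 0.04 (adjusted p = 0.882). In KO the ZT12 mice were lowest, with 115, 126, 135 and 152 CPM, and the ZT0 mice highest, with 147, 147, 177 and 188 CPM. The KO group means spanned 1.25-fold, against 1.16-fold for Aqp11 and 1.23-fold for Aqp9. Neither the KO wave (amplitude 0.10 ± 0.04, adjusted p = 0.275) nor any change over the 6 KO times (adjusted p = 0.182) was called. The difference at ZT12 (-0.21 ± 0.10, adjusted p = 0.165) was not called, and the average over times was 0.00 ± 0.04 (95% interval -0.08 to 0.09).

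Markers of the cells known to carry AQP1 were measured beside it. The 9 markers of sinusoidal endothelium summed to 464 to 727 CPM in WT and 412 to 705 CPM in KO. Of them 1 (Kdr) was lower in KO on average, where 8.86% of all genes were called. In WT 7 were rhythmic (48.1% of all genes), and 1 had a rhythm that differed between genotypes (22.8%). The 7 bile duct markers summed to 54.7 to 115 CPM and 63 to 126 CPM, with 0 called on average and 4 rhythmic in WT. The 6 red cell markers summed to 42 to 163 CPM and 25.7 to 169 CPM, with 0 called on average and 0 rhythmic in WT. Their part in the course of Aqp1 was not tested.

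Aqp4 (ENSMUSG00000024411, mm9 chromosome 18, 15547903 to 15562193) was the rarest member and varied widely between mice. It measured 5.87 CPM ± 2.52 in WT and 6.22 CPM ± 2.90 in KO (SD, n = 24 each), a coefficient of variation of 42.9% and 46.7%, against 8.92% and 10.6% for Aqp1 and 53.1% and 23.9% for the cycling Aqp8. At ZT20 the 4 WT mice, with 2.44, 2.67, 4.07 and 4.31 CPM, were all below the 4 KO mice, with 4.73, 5.24, 6.66 and 12.2 CPM. The difference of 1.09 ± 0.42 on the log2 scale was not called (adjusted p = 0.217). At all other times the groups overlapped. Neither rhythm was called (amplitude 0.31 ± 0.18 in WT and 0.29 ± 0.17 in KO, adjusted p = 0.295 and 0.493), and the average over times was 0.09 ± 0.17 (95% interval -0.25 to 0.43).

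**Figure D3:**
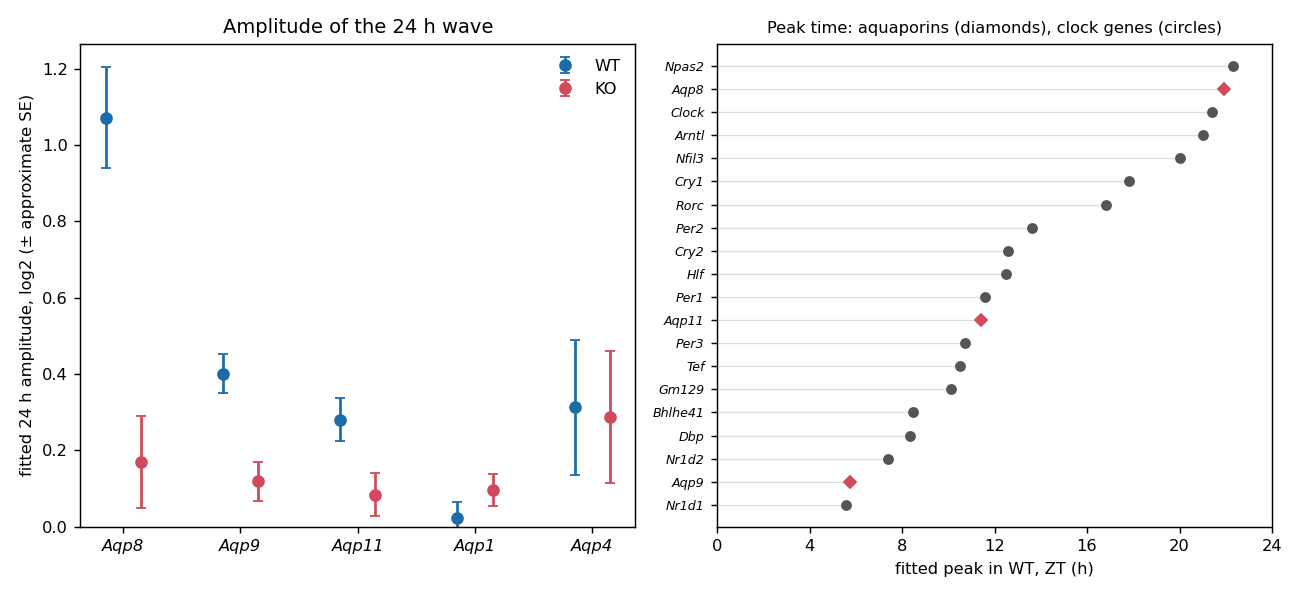
Left, fitted 24 h amplitude on the log2 scale (vertical axis, ± approximate SE, from 0) of the 5 aquaporins in WT (blue) and KO (red), with Aqp8 at 1.07 against 0.17. Right, fitted peak time in WT (horizontal axis, ZT in hours) of the 3 aquaporins called rhythmic (diamonds) among 17 clock genes (circles), with Aqp9 at 5.74, Aqp11 at 11.4 and Aqp8 at 21.9.

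Set among 17 clock genes, all rhythmic in WT, the 3 cycling aquaporins had fitted peaks at 3 separate parts of the day. By group means, Aqp9 (588.2 CPM) and Aqp11 (30.95 CPM) were both highest in WT at ZT8. The fitted peak of Aqp11 thus lay later than its highest group, and the places below are those of the fitted wave. Aqp8 at ZT 21.9 lay beside Arntl (ZT 21), Clock (21.4) and Npas2 (22.3), the genes of the positive limb. Aqp9 at ZT 5.74 lay between Nr1d1 (5.57) and Nr1d2 (7.38), which encode the REV-ERB repressors. Aqp11 at ZT 11.4 lay between Per3 (10.7) and Per1 (11.6), genes of the negative limb. The amplitude of Aqp8 (1.07) was below those of Arntl (2.03) and Npas2 (3.52) and above that of Clock (0.77). Over all genes tested the median WT amplitude was 0.182, and over the genes called rhythmic 0.248, so Aqp11 at 0.28 was close to that median, and Aqp9 and Aqp8 were above it. Peak times rest on 1 cycle sampled every 4 h. Over the other settings the WT peak ran from ZT 21.2 to 22 for Aqp8, 5.21 to 6.91 for Aqp9 and 11 to 12.2 for Aqp11. The order among close neighbours is therefore not settled.

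No KO mouse left the range that WT mice covered over the day for the cycling members. All 24 KO mice were inside the range of the 24 WT mice for Aqp8, for Aqp9 and for Aqp11, and 22 of 24 were for Aqp1 and for Aqp4. A gene that cycles in WT has a wide range over the day, which readily holds a flat course in KO. The share of all genes tested for which this holds was not counted, so these counts are descriptions. For Aqp8 the SD over 24 mice was 69.9 CPM in WT and 23.4 CPM in KO, and for Aqp9 it was 102 and 63.3 CPM. At single times the members that did not overlap between genotypes were Aqp8 (ZT0, ZT12 and ZT20), Aqp9 (ZT4, ZT8, ZT16 and ZT20) and Aqp4 (ZT20). In the order of the 6 times, from ZT0 on, 6.35%, 13.3%, 15.4%, 10.5%, 14.5% and 9.85% of all genes tested did not overlap. Called members, again from ZT0 on, numbered 2, 0, 1, 1, 2 and 2 of 5, where the share of all genes called was 1.68%, 3.79%, 7.87%, 11.7%, 5.37% and 1.05%. A test for any change over the 6 times called the 3 cycling members in WT (47.9% of all genes) and 0 in KO (0.91%), and the interaction called the same 3 (20.7%).

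The labels' cage letters split the mice into 3 sets, 1 for ZT4 and ZT8, 1 for ZT12 and ZT16 and 1 for ZT20 and ZT0, so a difference between sets and one between times cannot be told apart within a genotype. Both genotypes were present in each set. Within sets Aqp9 was lower in KO at ZT4 and ZT8 together (-0.37 ± 0.09, adjusted p = 0.00292), where 14.5% of all genes were called. It was higher at ZT12 and ZT16 (0.36 ± 0.09, adjusted p = 0.00471; 10.8% of genes) and at ZT20 and ZT0 (0.32 ± 0.09, adjusted p = 0.0211; 5.47% of genes). With body weight as a covariate these last values were 0.26 (adjusted p = 0.0753) and 0.25 (adjusted p = 0.0966), and with total-count scaling the last was 0.25 (adjusted p = 0.0535). The call at ZT20 and ZT0 also ended without WT mouse 42 or 36 or KO mouse 46 or 39 (adjusted p up to 0.0612). Aqp8 was lower in KO at ZT20 and ZT0 (-1.03 ± 0.16, adjusted p = 8.61e-05), and its values in the other sets (-0.05 ± 0.16 and 0.45 ± 0.16, adjusted p = 0.876 and 0.0613) were not called. DESeq2 called the value at ZT12 and ZT16 (0.441, adjusted p = 0.0464). With cage set as a term in the wave model, the WT amplitudes were 1.45 for Aqp8, 0.42 for Aqp9 and 0.49 for Aqp11, over 1.5 times the value without it for Aqp11, and the 3 rhythms and their differences were still called, where 24% and 24.3% of all genes were. In KO that model gave larger amplitudes of 0.418 for Aqp8 (adjusted p = 0.31, peak ZT 17.9), 0.151 for Aqp9 (adjusted p = 0.421) and 0.14 for Aqp11 (adjusted p = 0.486), none of them called.

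Aqp8 and Aqp9 act in hepatocytes, and markers of hepatocyte zones were measured beside them. Of 9 pericentral markers 5 were rhythmic in WT and 5 had a rhythm that differed in KO (48.1% and 22.8% of all genes tested), with a summed level of 5180 to 16200 CPM in WT and 6470 to 16000 CPM in KO. Of 8 periportal markers 5 were rhythmic in WT and 3 differed, with 6290 to 13700 CPM in WT and 6240 to 11900 CPM in KO, and none of either list was at 0. The WT counts of both lists are near the share over all genes. On average over times 2 pericentral markers were higher and 3 periportal markers lower in KO, against 8.86% of all genes called. Their part in the course of Aqp8 and Aqp9 was not tested.

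Genes that release, take up or use glycerol, the cargo of AQP9, were examined as a list of 15 tested genes. Of them 10 were rhythmic in WT, 0 in KO, and 8 had a rhythm that differed (48.1%, 0.984% and 22.8% of all genes tested), with a median amplitude of 0.23 in WT and 0.11 in KO against 0.182 and 0.114 over all genes. The smallest p of a WT rhythm were those of Pnpla2, which begins the breakdown of triglyceride (amplitude 0.72 ± 0.06, adjusted p = 2.4e-11, peak ZT 6.85), Slc37a4, the glucose 6-phosphate transporter (0.78 ± 0.08, adjusted p = 4.34e-10, ZT 11.8) and Mgll, which frees glycerol from monoglyceride (0.41 ± 0.06, adjusted p = 6.39e-07, ZT 14.8). Gyk, the kinase that traps glycerol in the cell, had a small WT wave (0.14 ± 0.05, adjusted p = 0.0314, peak ZT 19.4), and the difference between genotypes was not called (adjusted p = 0.553). On average over times, where 8.86% of all genes were called, 1 gene was higher in KO, Gpd1, a glycerol 3-phosphate dehydrogenase (0.30 ± 0.07, adjusted p = 0.00383), and 3 were lower, Fbp1 (-0.21 ± 0.05, adjusted p = 0.00212), Mgll (-0.27 ± 0.06, adjusted p = 0.0022) and Pnpla2 (-0.19 ± 0.05, adjusted p = 0.0109). The median of the list's log2 fold changes was -0.05, against 0.00 over all genes.

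Genes of bile secretion, the process AQP8 is linked to, numbered 16 tested. Of them 11 were rhythmic in WT, 1 in KO (Rdx, radixin, adjusted p = 0.0488) and 9 had a rhythm that differed (48.1%, 0.984% and 22.8% of all genes), with a median WT amplitude of 0.23. Abcb11, the bile salt export pump, peaked at ZT 0.161 (amplitude 0.59 ± 0.06, adjusted p = 3.9e-10), the sterol transporter Abcg5 at ZT 7.71 (0.77 ± 0.08, adjusted p = 8.46e-10) and the scaffold Slc9a3r1 at ZT 12.5 (0.56 ± 0.06, adjusted p = 8.07e-10). Their peaks were thus spread over the day, Abcb11 being the nearest of the 3 to Aqp8. On average over times, where 8.86% of all genes were called, 0 were higher and 1 lower in KO (Rdx, -0.13 ± 0.04, adjusted p = 0.0186). The median of the list's log2 fold changes was 0.03.

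Among 14 genes that respond to fasting or insulin, 11 were rhythmic in WT, 0 in KO and 8 differed (48.1%, 0.984% and 22.8% of all genes), with a median WT amplitude of 0.57. Pdk4, which spares pyruvate in fasting, peaked at ZT 21.1 (amplitude 1.44 ± 0.15, adjusted p = 2.69e-09), and Cpt1a, the entry to fat oxidation in mitochondria, at ZT 8 (0.58 ± 0.06, adjusted p = 6.23e-09). On average over times, where 8.86% of all genes were called, 1 gene of the list was higher in KO and 3 were lower. The lower ones were Creb3l3, Angptl4 and Irs2 (-0.25 ± 0.06, -0.52 ± 0.12 and -0.57 ± 0.18, adjusted p = 0.00387, 0.00437 and 0.0427). Aqp9, which belongs with the genes that insulin lowers, differed by 0.10 on the same average.

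A list of 18 genes held enzymes of hydrogen peroxide from any part of the cell. It also held genes of oxidative folding in the endoplasmic reticulum, where AQP11 resides. Of the 18 genes, 12 were rhythmic in WT and 0 in KO (48.1% and 0.984% of all genes). The rhythm was called different for 1 (Sod2, adjusted p = 0.00566), against 22.8% of all genes, and the list's median WT amplitude was 0.17. The smallest p of a WT rhythm were those of Pdia4 (amplitude 0.50 ± 0.08, adjusted p = 8.22e-06, peak ZT 17), P4hb (0.23 ± 0.04, adjusted p = 6.14e-05, ZT 15.4) and Pdia6 (0.36 ± 0.07, adjusted p = 8.72e-05, ZT 17.5), members of the protein disulfide isomerase family, and all later than Aqp11. On average Prdx1 (0.17 ± 0.04, adjusted p = 0.00153), Prdx3 and Prdx4 were higher in KO and Cat, catalase, was lower (-0.17 ± 0.05, adjusted p = 0.0233). Of all genes 8.86% were called on that average.

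The genes whose log2 level over the 48 libraries was most like each member's were found among 12295 genes with a mean of at least 1 CPM. For Aqp8 they included Acsl5, a fatty acyl-CoA synthetase (Pearson r = 0.891), and Anp32a (0.852), whose fitted WT peaks were ZT 21.4 and 22.2. For Aqp9 they were Syt1, a synaptotagmin (0.884), Amacr, a racemase of branched fatty acid breakdown and bile acid synthesis (0.827), and Pbld1 (0.805). Their peaks were at ZT 5.19, 5.68 and 6.01. For Aqp11 they were Aifm2, a coenzyme Q reductase (0.767), the kinase Map2k3 (0.767) and BC016495 (0.735), with peaks at ZT 11.5, 12.4 and 12.8. Aqp1 was most like Cd300lg, a receptor of endothelium (0.654), AU021092 (0.593) and Tbxa2r (0.541). Aqp4 was most like Tmem123 (0.66), Ccdc122 (0.611) and Zfp874a (0.605). The values compared share library, scaling and time of day, and the genes were picked as the highest, so the coefficients are descriptions.

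The members were not closely tied to each other. Over 24 WT libraries the Pearson correlation of log2 levels was -0.305 between Aqp8 and Aqp9, -0.463 between Aqp8 and Aqp11 and 0.107 between Aqp9 and Aqp11, and over 24 KO libraries it was -0.269, 0.022 and 0.341. These values describe libraries that share time and scaling within each genotype.

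Among KO mice of the same hour, Aqp9 was lower where more Arntl transcript was counted. This relation, and 9 others between the 5 members and Arntl or Dbp (a PAR-domain factor that the clock drives), were examined after the first results had been seen, as deviations of log2 CPM from the group mean in 24 KO mice, with 100000 permutations within groups (two-sided) and adjustment over the 10. For Aqp9 and Arntl, Pearson's r was -0.725 (permutation p = 0.00012, adjusted p = 0.0012) and Spearman's rho -0.809 (permutation p = 0.00012, adjusted p = 0.0012). Leaving out the 2 most extreme mice by Arntl, r was -0.693, and without the 4 KO mice that stood apart it was -0.819. Within cage sets it was -0.795 (ZT4 and ZT8), -0.581 (ZT12 and ZT16) and -0.911 (ZT20 and ZT0), with 8 mice each. It stayed called with each mouse left out in turn (r from -0.801 to -0.686). How much of the Arntl count came from undeleted alleles is not known here. The share of all genes tested that follow Arntl as closely among KO mice was not computed. The relation is therefore not shown to be particular to Aqp9.

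**Figure D4:**
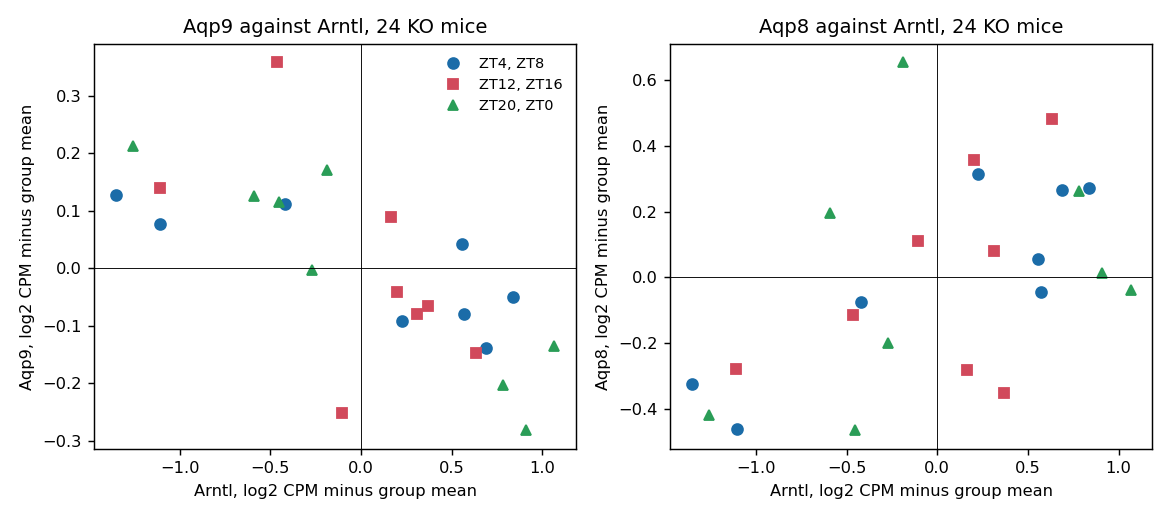
Deviation from the group mean in log2 CPM of Aqp9 (left, vertical axis) and Aqp8 (right, vertical axis) against that of Arntl (horizontal axes) in 24 KO mice, 1 point per mouse, with colour and shape for the 3 cage sets. Aqp9 falls as Arntl rises (r = -0.725), and Aqp8 leans the other way (r = 0.536, adjusted p = 0.0531).

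For Aqp8 and Arntl r was 0.536 (permutation p = 0.0143, adjusted p = 0.0531) and rho 0.524 (permutation p = 0.0193, adjusted p = 0.0642), which is not called. Its r was 0.43 without the 2 most extreme mice by Arntl, 0.859, 0.479 and 0.337 within the sets, and 0.614 (adjusted p = 0.0438) without the 4 KO mice. It was called in 5 of 24 fits without 1 mouse (KO mice 21, 24, 37, 39 and 44, r from 0.542 to 0.66). For Aqp9 and Dbp r was 0.519 (permutation p = 0.0159, adjusted p = 0.0531) and rho 0.605 (permutation p = 0.00698, adjusted p = 0.0349), with 0.832, -0.0309 and 0.911 within the sets, 0.424 without the 2 most extreme mice and 0.88 (adjusted p = 0.0018) without the 4. The r of Aqp9 and Dbp was thus near 0 in the set of ZT12 and ZT16, and it was called without KO mouse 20 (0.788, adjusted p = 0.0024) or KO mouse 21 (0.667, adjusted p = 0.0085), both of ZT12. For Aqp8 and Dbp r was -0.458 (permutation p = 0.0517, adjusted p = 0.129) and rho -0.434 (permutation p = 0.0642, adjusted p = 0.161), and r was called without KO mouse 39 (-0.633, adjusted p = 0.0228). The 6 relations of Aqp1, Aqp4 and Aqp11 had adjusted p from 0.556 to 0.905 for r. Among the 24 KO mice, Dbp deviated in the direction opposite to Arntl in all but KO mice 18, 20 and 25. The relations with Dbp are therefore not separate from those with Arntl, and how far they repeat them was not tested.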

How the data were processed

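Liver poly-A RNA of 48 mice was made into libraries with TruSeq RNA v2, which records no strand, with 13 PCR cycles, per the labels' protocols. Reads were called with CASAVA and aligned with STAR 2.4.0f1 to mm9, per the submitters' processing notes; the gene models and the handling of reads that match several genes are not given in the sources used here. The deposited table holds whole-number counts per gene, used as deposited; its totals are nearly equal, 33562272 to 34035644 counts, and the table may have been brought to a common depth before it was deposited, so the true depth of each library is unknown. No other row of the table overlaps a member.

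Genes were kept by filterByExpr (minimum count 10), leaving 14836 of 23732 and 99.975% of counts, and scaled by TMM factors (0.898 to 1.14). edgeR 4.0.16 (R 4.3.3) quasi-likelihood models had 1 mean per group (36 residual degrees of freedom) or a 24 h cosine and sine per genotype (42), with Benjamini-Hochberg adjustment over all genes; code was tested on simulated data. SE were derived from F statistics. CPM are TMM scaled, and log2 CPM used a prior count of 2. Exon lengths are GENCODE unions on GRCm38, and promoters are RefSeq's on GRCm38.p6. Alternatives were other scalings, filters, DESeq2 1.42.0, limma 3.58.1 voom with cage as block, body weight, cage set, and leaving out mice. Named genes are the members, up to 3 called genes per list by p of the average and of the WT rhythm, and the 3 genes most like each member; 2 genes that this rule names are not reported here. Gyk, Irs2, Prdx4, Sod2, Kdr and the average of Pnpla2 were added after their values were seen. The members and lists were chosen with earlier results of these data known.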

Additional observations from a re-analysis of the deposited data

Results flagged for a closer look

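In the WT group of ZT0, mouse 42 had an Aqp9 level of 381.1 CPM, apart from the other 3 mice at 458 to 460.2 CPM, a gap of 0.975 of the group's range. Of 60 groups of 4 examined this was the only one with a gap over the cutoff of 0.829 of the range. By chance about 1 in 20 groups pass that cutoff, so 1 in 60 is no more than chance gives.

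The course over the day differed between WT and KO in a test of the difference itself for Aqp8 (adjusted p = 9.52e-06 for the rhythm, 1.15e-07 for the genotype by time interaction), Aqp9 (3.75e-06 and 6.58e-05) and Aqp11 (0.00305 and 0.00398), all from edgeR's quasi-likelihood test.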

How the results depend on the processing

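The rhythm in WT, its difference in KO and the interaction were called for Aqp8, Aqp9 and Aqp11 in every alternative and every fit without 1 mouse, and no rhythm was called in KO in any of them. Of 30 values at single times, 8 were called, 5 with cage as a random block and 5 to 9 without 1 mouse; of 15 values within cage sets, 4 were called and 2 with body weight in the model. Some values that were called in no setting changed sign. With total-count scaling the log2 differences were -0.005 (Aqp1) and -0.013 (Aqp11) on average, -0.003 (Aqp9) at ZT0, 0.029 (Aqp1) and 0.014 (Aqp4) at ZT8, -0.024 (Aqp1) and -0.019 (Aqp11) at ZT20, and 0.042 (Aqp1) over ZT4 and ZT8. The Aqp11 average was 0.000 with DESeq2 size factors and with DESeq2, -0.003 among genes of at least 1 CPM, -0.010 with body weight, -0.009 with cage as block and -0.058 without KO mice 20, 21, 43 and 44. The Aqp1 average was -0.024 with body weight and -0.003 without those mice. Aqp1 at ZT4 was -0.003 with body weight, Aqp4 at ZT0 0.042 with cage as block, and Aqp4 at ZT12 0.094 without those mice. Without them, r among KO mice was -0.267 for Aqp1 with Arntl, -0.064 for Aqp4 with Arntl and 0.039 for Aqp4 with Dbp. Without 1 mouse in turn, the average ran from -0.011 to 0.017 (Aqp1) and from -0.015 to 0.019 (Aqp11); at ZT0 Aqp4 ran from -0.293 to 0.412; at ZT4 Aqp1 from -0.041 to 0.046 and Aqp4 from -0.047 to 0.704; at ZT8 Aqp1 from -0.088 to 0.031 and Aqp4 from -0.275 to 0.222; at ZT16 Aqp11 from -0.176 to 0.01; at ZT20 Aqp1 from -0.027 to 0.075 and Aqp11 from -0.04 to 0.136. Over ZT4 and ZT8 together Aqp1 ran from -0.038 to 0.021, Aqp4 from -0.044 to 0.329 and Aqp8 from -0.134 to 0.052. Among KO mice r ran from -0.145 to 0.177 (Aqp1 with Arntl), -0.224 to 0.069 (Aqp4 with Dbp) and -0.099 to 0.209 (Aqp11 with Dbp). The cause of these changes was not tested.

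DESeq2 also called Aqp8 at ZT4 (adjusted p = 0.0427), Aqp8 over ZT12 and ZT16 (0.0464) and Aqp11 over ZT20 and ZT0 (0.0482), which made 6 calls within cage sets. No paired analysis was possible by mouse number because mouse numbers do not recur between groups; cage mates were paired only through cage as a random block, and no separate fit of KO and WT cage mates was made. Of the mice, 38 were group-housed in 19 cages, 11 of them mixed; the estimated correlation within cages was 0.0806 and 0.158 in the models of group means and of the wave. Depth bears most on Aqp4, with 80 to 499 counts per library.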
